A study of Homo sapiens with 9 samples.

Results

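The 5 NF-kB subunits (NFKB1, NFKB2, RELA, RELB and REL), the IkB inhibitors NFKBIA, NFKBIB, NFKBIE and NFKBIZ, and MAP3K14, the kinase NIK, were followed in RNA-seq of HCT116, a widely used human colon carcinoma cell line. These 10 genes, of 58395 listed, were taken by name through their Ensembl gene IDs. They had been selected on their expected counts and TPM in these groups, as seen in earlier results, and all 10 were found and passed the filter on low counts. All 9 libraries came from cells carrying a hairpin against STBD1 (shSTBD1), a glycogen-binding protein. On top of the hairpin, 3 libraries each carried the empty plvx neo vector, STBD1 WT, or STBD1 W203C, a construct with a tryptophan changed to cysteine. The constructs were delivered by lentivirus as stable selected lines, and the methods of the study call the 3 libraries of a compared group biological replicates. How their cultures were kept apart is not stated, and a p-value weighs a difference between groups against the spread between these libraries only. Names of the deposited files have the constructs reversed relative to the sample titles. Groups here follow the titles. Swapping them would turn around each direction between the constructs. It would also exchange the values given for STBD1 WT and STBD1 W203C against plvx neo.

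NF-kB proteins are transcription factors that act as pairs. In the canonical route, receptors of TNF or interleukin-1 activate the IKK complex, which marks IkB inhibitors for destruction and frees pairs such as RELA with the processed form of NFKB1. In the noncanonical route, receptors such as LTBR or CD40 stop the breakdown of NIK, which then drives processing of NFKB2 to its short form, the partner of RELB. Several parts of the system, NFKBIA, NFKB2 and RELB among them, are textbook targets of NF-kB itself. Processing and release act on protein, and RNA levels do not measure them. In bulk RNA, a higher level per cell and more expressing cells cannot be told apart.

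The promoters of 8 of the 10 genes were in the RefSeq table (GRCh38.p14), in 14 windows running from 250 bases before to 50 bases after an annotated start. RELB and NFKBIE had no entry. The kappa-B consensus, the 10-letter motif bound by NF-kB, was searched on both strands. It was found in 8 windows of 6 genes, against 11.3% of all 35116 windows and 13.3% of all 27305 genes. The 9-letter form GGGNNTTCC was found in windows of 2 genes, NFKB2 and NFKBIZ, against 7.95% of genes. Its spacing differs from that of the consensus, so it is another motif and not a narrower version. A stretch is shown for 5 genes, with the motif in 2 subunits (NFKB1 and NFKB2) and 2 inhibitors (NFKBIA and NFKBIZ), and RELA as a window without it. The matches of REL and NFKBIB are given in words. Each is the 250 bases before the start, read along the gene, with the motif in capitals. The spans are NFKB1 chr4:102501109-102501358 (plus strand), NFKB2 chr10:102395455-102395704 (plus strand), NFKBIA chr14:35404750-35404999 (minus strand), NFKBIZ chr3:101827740-101827989 (plus strand) and RELA chr11:65663858-65664107 (minus strand).
NFKB1: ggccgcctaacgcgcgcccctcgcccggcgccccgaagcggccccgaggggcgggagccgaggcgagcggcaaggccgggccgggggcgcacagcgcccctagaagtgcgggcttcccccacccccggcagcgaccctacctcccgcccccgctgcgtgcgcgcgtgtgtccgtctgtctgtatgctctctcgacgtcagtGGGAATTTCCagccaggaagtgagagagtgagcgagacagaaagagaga
NFKB2: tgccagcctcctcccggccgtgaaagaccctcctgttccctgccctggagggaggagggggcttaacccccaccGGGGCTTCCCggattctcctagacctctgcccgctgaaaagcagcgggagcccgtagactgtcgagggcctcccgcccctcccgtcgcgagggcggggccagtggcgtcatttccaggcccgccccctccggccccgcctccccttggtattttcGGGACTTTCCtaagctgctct
NFKBIA: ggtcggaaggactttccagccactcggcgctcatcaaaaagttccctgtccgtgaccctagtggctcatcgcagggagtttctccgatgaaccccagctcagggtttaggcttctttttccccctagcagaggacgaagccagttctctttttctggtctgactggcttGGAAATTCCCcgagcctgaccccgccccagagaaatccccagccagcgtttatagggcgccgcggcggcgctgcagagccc
NFKBIZ: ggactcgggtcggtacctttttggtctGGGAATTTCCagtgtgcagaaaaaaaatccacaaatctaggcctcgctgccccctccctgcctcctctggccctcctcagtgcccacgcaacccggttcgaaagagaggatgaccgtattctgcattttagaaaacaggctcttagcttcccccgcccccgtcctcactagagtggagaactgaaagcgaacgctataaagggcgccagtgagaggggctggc
RELA: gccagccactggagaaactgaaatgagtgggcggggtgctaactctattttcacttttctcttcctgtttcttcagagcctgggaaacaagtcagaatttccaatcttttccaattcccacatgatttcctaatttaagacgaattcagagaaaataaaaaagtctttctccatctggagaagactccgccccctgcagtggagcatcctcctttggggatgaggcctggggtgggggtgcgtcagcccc

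In NFKB1 the motif GGGAATTTCC began 49 bases before the start, and the same letters stood 223 bases before the first NFKBIZ start. A second NFKBIZ window, not shown, held GGGGTTTCCC 239 bases before its start. The 250 bases before that start lay wholly in an annotated exon. Of the NFKBIZ windows, only the second held the 9-letter form. The NFKB2 window shown precedes the most downstream of 3 annotated starts, inside the gene, and held GGGGCTTCCC at 176 and GGGACTTTCC at 21 bases before it. A second NFKB2 window, 250 bases long and wholly in an annotated exon, held GGGAATTCCCC and GGGGCTTTCC at 107 and 78 bases before its start. In NFKBIA the motif was GGAAATTCCC, a match on the opposite strand, 81 bases before the start. REL held GGGAAATTCCC 47 bases before its start, and NFKBIB held GGGAATTTCCC 28 bases before and GGGGGGCCCC 39 bases after one of its starts, each run counting overlapping matches on both strands. None of the windows of RELA or MAP3K14 held the motif. These are matches of letters in a window, and binding was not measured.

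Depth was similar across libraries, with 16.9 to 23.3 M (mega) expected counts each, where an expected count is the RSEM estimate of read pairs per gene. STBD1 itself was at 3.27 ± 0.547 TPM (a level scaled by transcript length and to a fixed library total; SD, n = 3) in plvx neo, 10.8 ± 0.0693 with STBD1 WT and 9.15 ± 1.04 with STBD1 W203C. The read-through gene FAM47E-STBD1, which overlaps it, was at 1.58 ± 0.747, 43.7 ± 2.32 and 36.9 ± 1.92 TPM. The constructs were thus seen in the libraries labelled with them, though gene levels do not show the mutation. Both genes were lower in STBD1 W203C than in STBD1 WT, without overlap in TPM. On counts the log2 fold change was -0.28 (SE 0.08) for STBD1 and -0.27 (SE 0.06) for FAM47E-STBD1. In differences between the constructs, the level of the construct and its mutation cannot be told apart. Of 10 epithelial markers, EPCAM, KRT8, KRT18, KRT19, CDH1, CLDN7 and CDX2 were expressed, CDX1 was listed at 0 in all 9 libraries, and VIL1 and LGALS4 reached at most 0.08 and 1.42 TPM. The summed epithelial markers ranged from 3931 to 4035 TPM in plvx neo, 3536 to 3676 with STBD1 WT and 3300 to 3567 with STBD1 W203C, and their part in the results was not tested. The 6 immune markers summed to at most 1.01 TPM and the 4 endothelial markers to at most 0.47 TPM, and 5 of 6 fibroblast markers stayed under 1 TPM, the exception being COL1A1.

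In the libraries labelled STBD1 WT, 9 of the 10 genes were higher than in plvx neo and MAP3K14 did not pass the test. The largest differences were in RELB and NFKB2, the subunits of the noncanonical pair, and in NFKBIA, the inhibitor IkB-alpha. In the edgeR quasi-likelihood test, 27.8% of the 15289 genes tested were called (13.9% higher, 13.9% lower) at a Benjamini-Hochberg adjusted p below 0.05. The 10 genes were chosen with such results known, so their counts and adjusted p-values are a description. In the libraries labelled STBD1 W203C, 5 of the 10 were lower and 1 was higher than in STBD1 WT, where 27.9% of genes were called (13.4% lower, 14.5% higher). Against plvx neo, 7 were higher and 1 lower in STBD1 W203C, where 5.7% of genes were called (3.03% higher, 2.67% lower). The comparisons with plvx neo share its 3 libraries. On log2(TPM + 1) with limma, the share of called genes that were higher moved from 51.8% to 69.8% between the constructs and from 53.2% to 72.9% for STBD1 W203C against plvx neo. In that fit REL, NFKBIB and NFKBIZ lost the call in STBD1 WT vs plvx neo (limma adjusted p = 0.307, 0.121 and 0.0857). RELA and NFKBIZ lost it between the constructs (limma adjusted p = 0.331 and 0.0748), and REL, NFKBIE and MAP3K14 for STBD1 W203C against plvx neo (limma adjusted p = 0.408, 0.497 and 0.25).

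**Figure D1:**
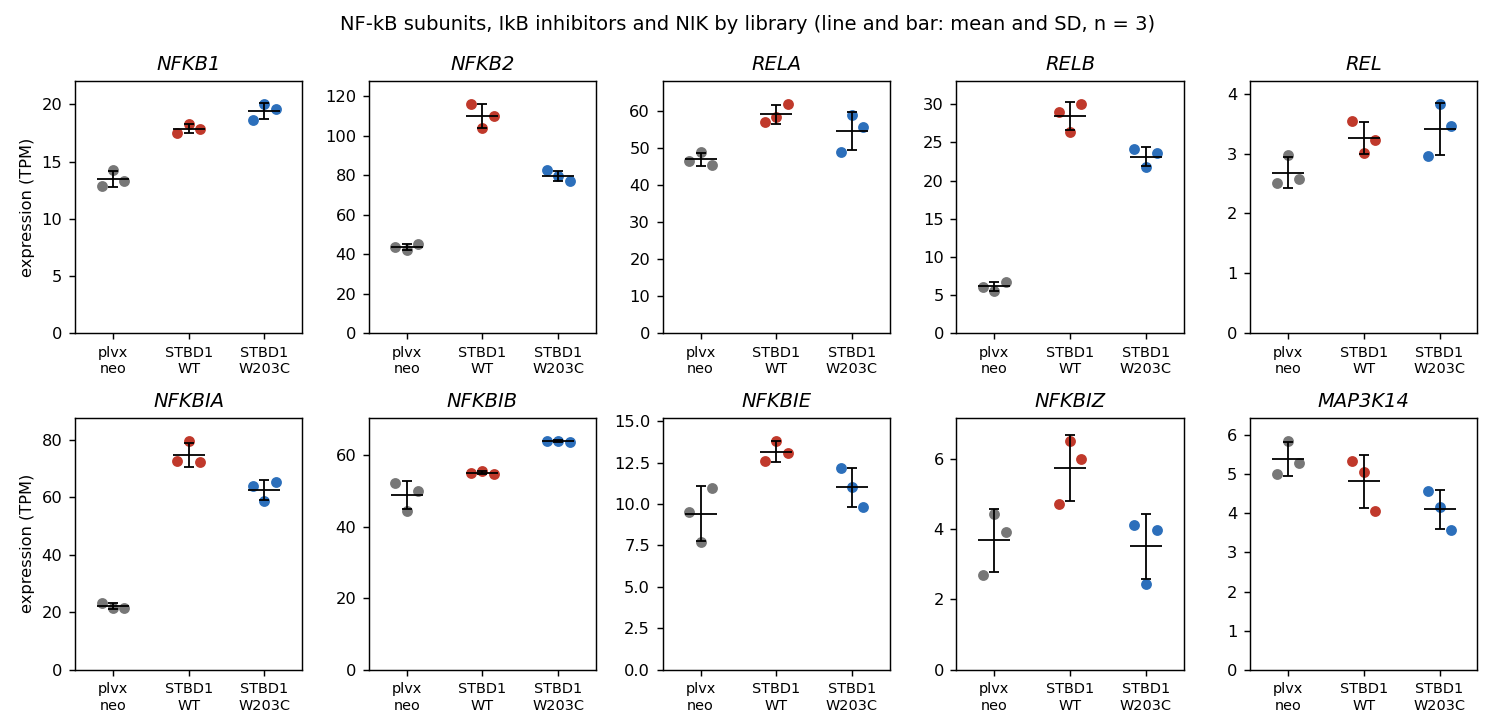
Expression in TPM of each of the 10 genes in the 9 libraries, by group, with points for libraries and a line and bar for mean and SD (n = 3); each vertical axis starts at 0 and has its own scale. RELB, NFKB2 and NFKBIA in both constructs sit far above plvx neo, with STBD1 W203C below STBD1 WT, whereas MAP3K14 is lowest in STBD1 W203C.

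Among the canonical subunits, NFKB1 (ENSG00000109320, chr4:102501330-102617302, plus strand, hg38), which gives the precursor of the DNA-binding partner of RELA, stood at 12.9, 14.3 and 13.3 TPM in plvx neo, 17.5, 18.3 and 17.8 TPM in STBD1 WT, and 18.7, 20.04 and 19.6 TPM in STBD1 W203C. The groups did not overlap, and STBD1 W203C was the highest. The log2 fold change was 0.35 (SE 0.05, edgeR adjusted p = 5.46e-05) for STBD1 WT and 0.47 (SE 0.05, adjusted p = 3.13e-06) for STBD1 W203C against plvx neo. Between the constructs it was 0.12 (SE 0.05), which did not pass (edgeR adjusted p = 0.0573).

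RELA (ENSG00000173039, chr11:65653599-65663090, minus strand, hg38), the main transactivating subunit of the canonical pair, was at 46.5, 49.0 and 45.6 TPM in plvx neo, 57.1, 58.5 and 62.0 in STBD1 WT, and 48.9, 59.0 and 55.9 in STBD1 W203C. STBD1 WT lay above plvx neo without overlap, and STBD1 W203C overlapped both. The log2 fold change of STBD1 WT against plvx neo was 0.23 (SE 0.04, edgeR adjusted p = 0.000537), and that of STBD1 W203C against plvx neo was 0.09 (SE 0.05) and did not pass (adjusted p = 0.301). RELA was lower in STBD1 W203C than in STBD1 WT by a log2 fold change of -0.14 (SE 0.05, edgeR adjusted p = 0.0391). That call was lost in DESeq2 (adjusted p = 0.11), with the replicate number as a block (edgeR adjusted p = 0.0756) and without STBD1 WT replicate 1 or 2 or STBD1 W203C replicate 1 or 2 (adjusted p = 0.136, 0.165, 0.247 and 0.124).

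REL (ENSG00000162924, chr2:60881491-60931612, plus strand, hg38), the subunit c-Rel best known from lymphocytes, was the least abundant of the 10 in each group by mean TPM. Its libraries read 2.5, 2.97 and 2.58 TPM in plvx neo, 3.55, 3.01 and 3.22 in STBD1 WT, and 2.96, 3.83 and 3.46 in STBD1 W203C, and STBD1 W203C overlapped both other groups. On counts it was higher than plvx neo in STBD1 WT, with a log2 fold change of 0.38 (SE 0.10, edgeR adjusted p = 0.00613), and in STBD1 W203C, with 0.37 (SE 0.09, adjusted p = 0.0167). The STBD1 WT call was lost without plvx neo replicate 3 (edgeR adjusted p = 0.0518), and the STBD1 W203C call without that library or without STBD1 W203C replicate 2 or 3 (adjusted p = 0.132, 0.104 and 0.086). In its annotated exons REL shares 33.3% of bases with the same-strand transcript ENSG00000267520. Between the constructs the log2 fold change was -0.0024 (SE 0.10, edgeR adjusted p = 0.99). With the counts of REL and that transcript summed, REL stayed called against plvx neo, at 0.29 (SE 0.07) and 0.34 (SE 0.07).

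RELB and NFKB2, the noncanonical subunits, had the largest differences from plvx neo among the subunits. NFKB2 (ENSG00000077150, chr10:102394110-102402524, plus strand, hg38), whose product is both a precursor and an IkB-like inhibitor, was at 43.4, 42.0 and 45.0 TPM in plvx neo, 116.1, 103.7 and 110.2 in STBD1 WT, and 82.4, 79.6 and 77.2 in STBD1 W203C. The groups lay wholly apart, with STBD1 W203C between the other 2. The mean was 2.53 times plvx neo with STBD1 WT and 1.83 times with STBD1 W203C. On counts the log2 fold change was 1.38 (SE 0.05, edgeR adjusted p = 1.89e-14) and 0.85 (SE 0.04, adjusted p = 1.78e-12) against plvx neo, and -0.52 (SE 0.04, adjusted p = 5.47e-09) between the constructs.

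RELB (ENSG00000104856, chr19:45001461-45038192, plus strand, hg38), the partner of processed NFKB2, had the largest difference of the 10 against plvx neo. It read 6.10, 5.48 and 6.75 TPM in plvx neo, 29.0, 26.4 and 30.1 in STBD1 WT, and 24.1, 21.7 and 23.6 in STBD1 W203C, again with no overlap. The mean was 4.66 times plvx neo with STBD1 WT and 3.79 times with STBD1 W203C. The log2 fold changes were 2.29 (SE 0.08, edgeR adjusted p = 7.73e-14) and 1.93 (SE 0.09, adjusted p = 7.96e-13) against plvx neo and -0.35 (SE 0.06, adjusted p = 0.000187) between the constructs.

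**Figure D2:**
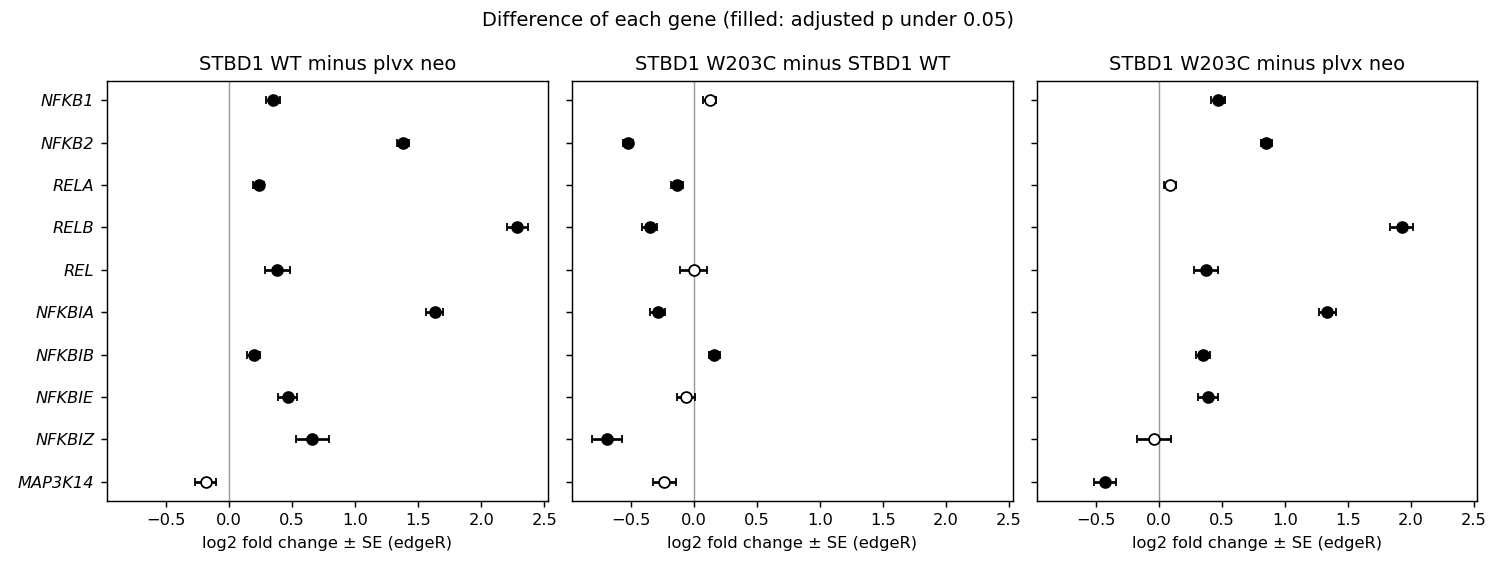
Log2 fold change (edgeR, horizontal axis) with its SE for each of the 10 genes in the 3 comparisons, filled where the adjusted p was below 0.05. The 3 values furthest to the right in both comparisons with plvx neo belong to RELB, NFKBIA and NFKB2, and in STBD1 W203C minus STBD1 WT the lowest are NFKBIZ and NFKB2.

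The balance of subunit RNA, which can be added up on TPM, shifted with these genes. The 5 subunits summed to 113 ± 1.21 TPM in plvx neo, 219 ± 7.73 with STBD1 WT and 180 ± 3.59 with STBD1 W203C (SD, n = 3), with no overlap. RELA made up 41.7% ± 1.39 of that sum in plvx neo, 27.1% ± 1.29 with STBD1 WT and 30.2% ± 2.32 with STBD1 W203C. NFKB2 made up 38.6% ± 1.43, 50.2% ± 1.51 and 44.2% ± 2.00 in the same order, and RELB 5.42% ± 0.575, 13.0% ± 0.442 and 12.9% ± 0.939. In plvx neo RELA had the larger share of the sum and in both constructs NFKB2 did. The RELB share overlapped between the constructs, at 12.6% to 13.5% in STBD1 WT and 11.8% to 13.6% in STBD1 W203C, while both groups lay above plvx neo. NFKB1 had a smaller share although its level was higher, with 12.0% ± 0.524 in plvx neo, 8.18% ± 0.469 with STBD1 WT and 10.8% ± 0.200 with STBD1 W203C.

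**Figure D3:**
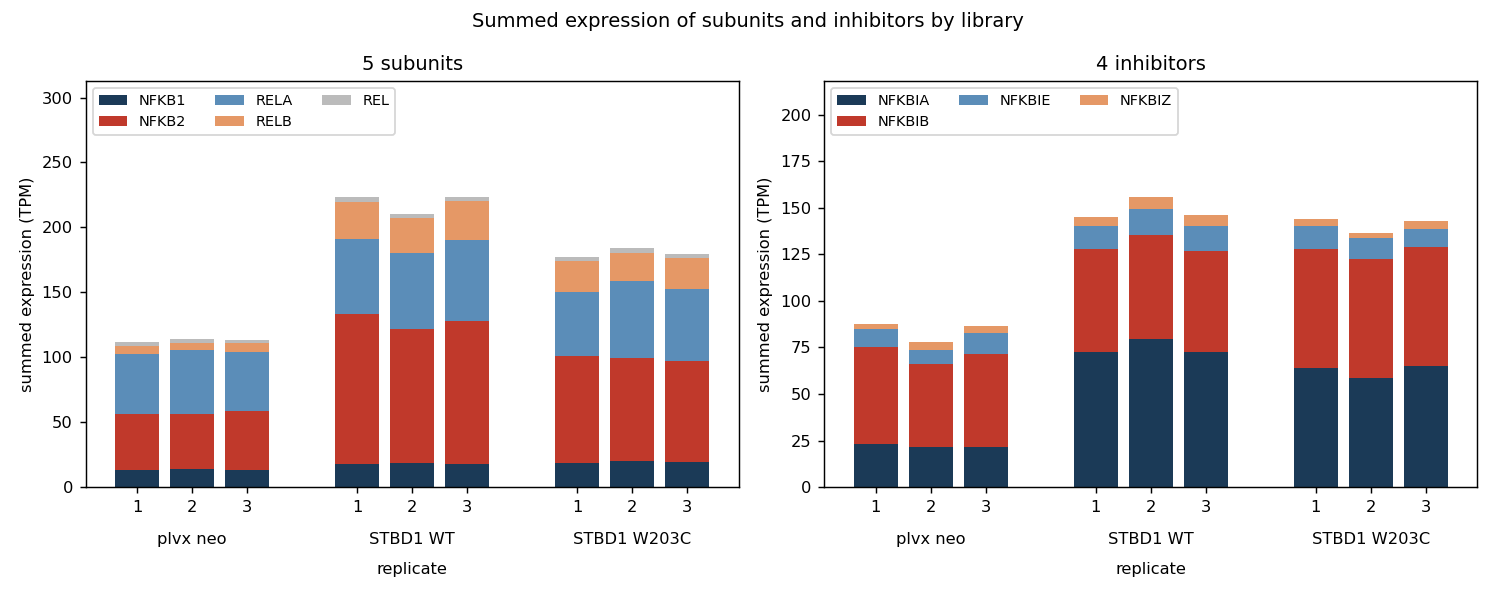
Summed TPM of the 5 subunits (left) and the 4 inhibitors (right) in each library, bars starting at 0 and split by gene. The subunit sum is 111 to 114 TPM in plvx neo, 210 to 223 with STBD1 WT and 177 to 184 with STBD1 W203C, and most of the added height is NFKB2 among subunits and NFKBIA among inhibitors.

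Of the inhibitors, NFKBIA (ENSG00000100906, chr14:35401079-35404749, minus strand, hg38) encodes IkB-alpha, which holds RELA-containing pairs in the cytoplasm and is renewed by NF-kB activity. It was at 23.3, 21.4 and 21.4 TPM in plvx neo, 72.4, 79.7 and 72.3 in STBD1 WT, and 63.7, 58.5 and 65.2 in STBD1 W203C. Every construct library lay above every plvx neo library, and STBD1 W203C lay below STBD1 WT without overlap. The mean was 3.39 and 2.84 times plvx neo. The log2 fold changes were 1.63 (SE 0.07, edgeR adjusted p = 3.66e-13) and 1.34 (SE 0.07, adjusted p = 1.15e-12) against plvx neo and -0.29 (SE 0.06, adjusted p = 0.000711) between the constructs.

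NFKBIB (ENSG00000104825, chr19:38899700-38908893, plus strand, hg38), which encodes IkB-beta, a slower-turning inhibitor, did not follow that order. Its libraries read 52.2, 44.6 and 50.2 TPM in plvx neo, 55.2, 55.7 and 54.7 in STBD1 WT, and 64.1, 64.2 and 63.7 in STBD1 W203C, so STBD1 W203C was highest and the groups did not overlap. It was the single gene of the 10 called higher in STBD1 W203C than in STBD1 WT, with a log2 fold change of 0.16 (SE 0.04, edgeR adjusted p = 0.00906). Against plvx neo it was 0.19 (SE 0.05, edgeR adjusted p = 0.0108) in STBD1 WT and 0.35 (SE 0.05, adjusted p = 0.000151) in STBD1 W203C. The STBD1 WT call was lost without plvx neo replicate 2 (edgeR adjusted p = 0.0639) or STBD1 WT replicate 2 (adjusted p = 0.0514).

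NFKBIE (ENSG00000146232, chr6:44258166-44265788, minus strand, hg38), which encodes IkB-epsilon, was at 9.54, 7.69 and 11.0 TPM in plvx neo, 12.6, 13.8 and 13.1 in STBD1 WT, and 12.2, 11.0 and 9.83 in STBD1 W203C. STBD1 WT was highest without overlap, and STBD1 W203C overlapped plvx neo. On counts the log2 fold change against plvx neo was 0.46 (SE 0.07, edgeR adjusted p = 9.27e-05) in STBD1 WT and 0.40 (SE 0.08, adjusted p = 0.00266) in STBD1 W203C. The TPM gap between the constructs was not seen on counts, where the log2 fold change was -0.06 (SE 0.07, edgeR adjusted p = 0.561).

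NFKBIZ (ENSG00000144802, chr3:101827991-101861022, plus strand, hg38) encodes a nuclear IkB that can also help activate targets of NF-kB. It was low, at 2.7, 4.42 and 3.92 TPM in plvx neo, 4.71, 6.52 and 6.01 in STBD1 WT, and 4.13, 2.44 and 3.97 in STBD1 W203C. STBD1 WT lay above both other groups, which overlapped. The log2 fold change was 0.66 (SE 0.13, edgeR adjusted p = 0.000724) for STBD1 WT against plvx neo, -0.69 (SE 0.12, adjusted p = 0.000195) between the constructs and -0.03 (SE 0.14, adjusted p = 0.933) for STBD1 W203C against plvx neo, a last value whose sign turned when single libraries were left out. At 118 to 321 expected counts per library it was measured from few reads.

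The 4 inhibitors summed to 84.1 ± 5.21 TPM in plvx neo, 149 ± 5.94 with STBD1 WT and 141 ± 4.25 with STBD1 W203C (SD, n = 3). The sums of the constructs lay above plvx neo, and STBD1 W203C (136 to 144) and STBD1 WT (145 to 156) were close but did not overlap. NFKBIA was 26.2% ± 1.36 of the sum in plvx neo, 50.2% ± 0.858 with STBD1 WT and 44.3% ± 1.35 with STBD1 W203C, and NFKBIB was 58.2% ± 1.25, 37.1% ± 1.19 and 45.4% ± 1.48. Inhibitor RNA divided by subunit RNA was 0.746 ± 0.0526, 0.682 ± 0.0522 and 0.783 ± 0.0387 in the same order, and these ratios overlapped between plvx neo and each construct.

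MAP3K14 (ENSG00000006062, chr17:45263119-45317029, minus strand, hg38), the NIK kinase at the head of the noncanonical route, was the exception. It read 5.00, 5.86 and 5.29 TPM in plvx neo, 5.35, 5.05 and 4.05 in STBD1 WT, and 4.57, 4.17 and 3.57 in STBD1 W203C. STBD1 WT overlapped both other groups, and STBD1 W203C lay below plvx neo. The log2 fold change was -0.19 (SE 0.08, edgeR adjusted p = 0.103) for STBD1 WT and -0.42 (SE 0.09, adjusted p = 0.00298) for STBD1 W203C against plvx neo, and -0.23 (SE 0.09, adjusted p = 0.0634) between the constructs. Without STBD1 WT replicate 1 the first passed (edgeR adjusted p = 0.0422), and without STBD1 WT replicate 2 the last did (adjusted p = 0.046). An opposite-strand transcript, MAP3K14-AS1, covers 15.1% of its exonic bases and the strand of counting is not stated. With the counts of both summed, the difference of STBD1 W203C from plvx neo was -0.38 (SE 0.08).

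Set out by level, RELA and NFKBIB headed the 10 genes in plvx neo, at 47.0 and 49.0 mean TPM, and did not differ beyond their spread, with NFKB2 just below at 43.5 TPM. In STBD1 WT, NFKB2 (110 TPM) was followed by NFKBIA (74.8 TPM), RELA (59.2 TPM) and NFKBIB (55.2 TPM), none overlapping. In STBD1 W203C, NFKB2 (79.7 TPM) came first, and NFKBIB (64.0 TPM) and NFKBIA (62.5 TPM) overlapped, as did NFKBIA and RELA (54.6 TPM). RELB, at 6.11 mean TPM in plvx neo, overlapped MAP3K14 there, and at 28.5 TPM with STBD1 WT and 23.1 TPM with STBD1 W203C it stood above NFKB1 and NFKBIE. REL, NFKBIZ and MAP3K14 held the lowest places in every group, and in STBD1 W203C all 3 overlapped.

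Expected counts and TPM chose these genes, and TPM is divided by transcript length, so lengths are not independent of that choice and are given as a description. RSEM reports a length for each gene, the mean over its transcripts weighted by their estimated abundance, which moves when the mix of transcripts does. NFKBIA was 1359, 1380 and 1424 bases long in plvx neo, 1294, 1301 and 1272 in STBD1 WT, and 1317, 1296 and 1268 in STBD1 W203C, so its transcripts averaged shorter in both constructs without overlap with plvx neo. RELA was also shorter in STBD1 WT, narrowly, at 2056 to 2341 bases against 2347 to 2412 in plvx neo. NFKBIE was longer in STBD1 W203C (2331 to 2581 bases) than in STBD1 WT (2112 to 2222 bases), the pair in which its TPM and its counts gave different sizes. In all, 2 of the 10 genes had lengths that did not overlap in STBD1 WT vs plvx neo, where this held for 12.1% of tested genes. The count was 1 between the constructs (11.2% of tested genes) and 1 for STBD1 W203C against plvx neo (11.4%). For TPM the counts of genes whose groups did not overlap were 9, 7 and 6 of 10, against 31.3%, 33.1% and 20.2% of tested genes.

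**Figure D4:**
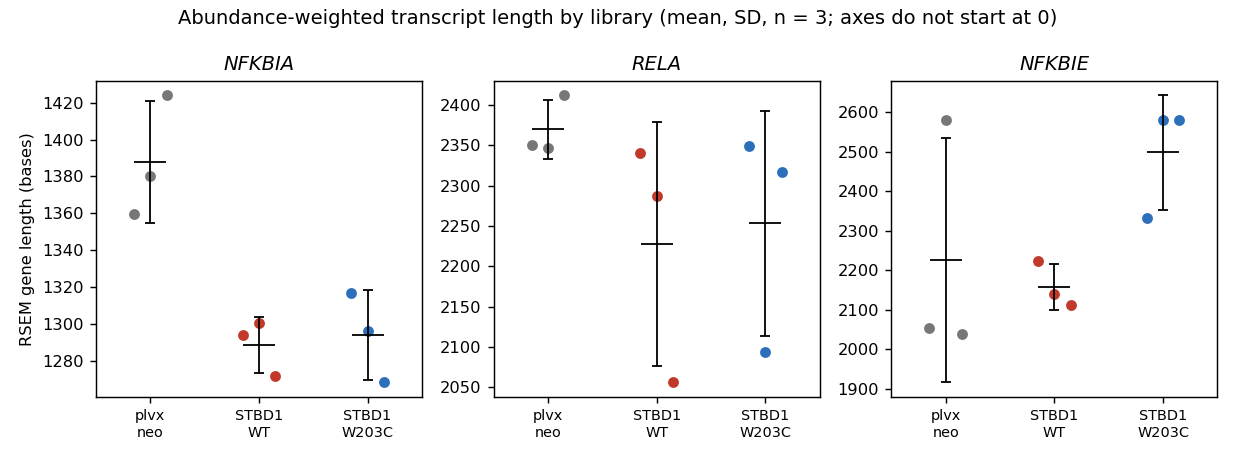
RSEM gene length in bases, weighted by transcript abundance, of NFKBIA, RELA and NFKBIE in each library, with mean and SD (n = 3); the axes do not start at 0. For NFKBIA the plvx neo libraries (1359 to 1424 bases) lie above all construct libraries, and for NFKBIE STBD1 W203C lies above STBD1 WT while plvx neo spans both.

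The rest of the pathway was taken from 6 lists. Among 18 canonical kinases and adaptors, 2 were higher, 1 was lower and 15 did not pass in STBD1 WT vs plvx neo, with a median log2 fold change of 0.04, where 27.8% of all tested genes were called. The medians over all genes tested were 0.0061, -0.0078 and -0.0031 in the 3 comparisons, STBD1 WT vs plvx neo first and STBD1 W203C vs plvx neo last. CHUK, the kinase IKK-alpha, was lower in STBD1 WT, at 22.8, 23.3 and 22.7 TPM against 26.1, 27.4 and 27.97 in plvx neo, a log2 fold change of -0.26 (SE 0.04). TRADD, an adaptor of the TNF receptor, was higher at 0.44 (SE 0.08), and TAB3, an adaptor of the kinase TAK1, at 0.22 (SE 0.06). Between the constructs 2 were higher and 4 lower (27.9% of all tested genes called), with CHUK at 0.23 (SE 0.05), TRADD at -0.41 (SE 0.09) and the kinase IKBKB at -0.20 (SE 0.07). For STBD1 W203C against plvx neo, where 5.7% of all tested genes were called, the single gene called by edgeR was RNF31, a ubiquitin ligase subunit, at 0.19 (SE 0.05). The list medians there were 0.05 between the constructs and 0.01 against plvx neo. IKBKB lost its call without any 1 library other than STBD1 WT replicate 2 (edgeR adjusted p = 0.0632 to 0.13). TAB3 lost it without plvx neo replicate 1 or STBD1 WT replicate 2 (edgeR adjusted p = 0.06 and 0.0616), and RNF31 without plvx neo replicate 1 or 3 or STBD1 W203C replicate 1 or 2 (edgeR adjusted p = 0.0506 to 0.114). In limma these 3 calls were also lost (adjusted p = 0.454, 0.356 and 0.228), and in DESeq2 those of IKBKB and TAB3 (adjusted p = 0.174 and 0.0594).

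In the list of noncanonical receptors, ligands and NIK turnover, 11 of 14 genes were tested, and TNFSF14, TNFSF13B and LTB were at most 0.42 TPM in any library. BIRC3, a ubiquitin ligase of the complex that destroys NIK and a known NF-kB target, was at 1.02, 0.98 and 1.12 TPM in plvx neo, 10.6, 9.47 and 11.0 in STBD1 WT, and 4.11, 4.23 and 5.05 in STBD1 W203C, with no overlap. Its log2 fold change was 3.38 (SE 0.11) and 2.05 (SE 0.12) against plvx neo and -1.33 (SE 0.08) between the constructs (edgeR adjusted p = 9.5e-15, 6.53e-11 and 1.75e-10). TRAF3, the adaptor that brings NIK to the complex, was higher by 0.38 (SE 0.05) with STBD1 WT and 0.28 (SE 0.05) with STBD1 W203C. In limma the second of these was lost (adjusted p = 0.237). BIRC2, another ubiquitin ligase of the complex, was higher by 0.38 (SE 0.05) in STBD1 WT and lower between the constructs, at -0.21 (SE 0.05), a call lost in limma (adjusted p = 0.362). Against plvx neo, BIRC2 in STBD1 W203C was at 0.17 (SE 0.05) and did not pass (edgeR adjusted p = 0.0635). TRAF2, an adaptor of the same complex, was lower in STBD1 WT than in plvx neo, at -0.20 (SE 0.07, edgeR adjusted p = 0.0485), higher between the constructs, at 0.22 (SE 0.07), and at 0.02 (SE 0.06, edgeR adjusted p = 0.938) in STBD1 W203C against plvx neo. Its first call was lost in DESeq2 and limma (adjusted p = 0.103 and 0.419) and without plvx neo replicate 2 or 3 or STBD1 WT replicate 2 or 3 (edgeR adjusted p = 0.0671 to 0.311). The call between the constructs was lost in DESeq2 and limma (adjusted p = 0.0769 and 0.208) and without STBD1 WT replicate 2 or STBD1 W203C replicate 3 (edgeR adjusted p = 0.237 and 0.127). TNFRSF12A, the TWEAK receptor, was lower than plvx neo in STBD1 WT, at -0.17 (SE 0.05), and in STBD1 W203C, at -0.22 (SE 0.05). The STBD1 WT call was lost without STBD1 WT replicate 3 (edgeR adjusted p = 0.0508). It was also lost in limma with a pseudocount of 0.1 or without a filter (adjusted p = 0.0512 and 0.0967). The STBD1 W203C call was lost in limma (adjusted p = 0.159) and without STBD1 W203C replicate 2 (edgeR adjusted p = 0.0573). LTBR, the lymphotoxin beta receptor, was higher in STBD1 W203C by 0.18 (SE 0.04) against plvx neo and by 0.12 (SE 0.04) between the constructs, both calls lost in limma (adjusted p = 0.30 and 0.0535). The second was also lost with the replicate block (edgeR adjusted p = 0.0519) and without STBD1 WT replicate 1 or 3 or STBD1 W203C replicate 3 (edgeR adjusted p = 0.0506 to 0.0653). The list had 3 higher and 2 lower genes in STBD1 WT vs plvx neo, 2 and 2 between the constructs, and 3 and 1 for STBD1 W203C against plvx neo, with medians of -0.04, -0.02 and 0.06, where 27.8%, 27.9% and 5.7% of all tested genes were called.

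Of 13 canonical receptors and ligands, 7 were tested. The ligands TNF, LTA, IL1A and IL1B stayed at or below 0.29 TPM, and TLR2 and TLR4 were listed at 0 throughout. In STBD1 WT vs plvx neo 2 were higher and 1 lower (27.8% of all tested genes called), among them IL18, an interleukin-1 family cytokine, at 0.33 (SE 0.05) and the TNF receptor TNFRSF1A at -0.16 (SE 0.05). The TNFRSF1A call was lost in limma (adjusted p = 0.217) and without plvx neo replicate 1 or 3 or STBD1 WT replicate 2 or 3 (edgeR adjusted p = 0.0586 to 0.0686). IL18 was lower in STBD1 W203C than in STBD1 WT, at -0.35 (SE 0.05), one of 2 lower genes there. Of the 7, edgeR called 0 for STBD1 W203C against plvx neo (2 at an unadjusted p below 0.05). DESeq2 gave a p for 11 genes of the list and called 0 (1 unadjusted), and limma gave one for 4 and called 0 (0 unadjusted). The medians of the 3 comparisons were 0.31, -0.32 and -0.02.

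Feedback and deubiquitinating regulators, which switch the pathway off, had 5 of 11 genes higher and 0 lower in STBD1 WT vs plvx neo, where 13.9% of all tested genes were higher and 13.9% lower. TNFAIP3, the ubiquitin editor A20, was at 1.96, 2.79 and 1.64 TPM in plvx neo, 5.61, 5.06 and 8.05 in STBD1 WT, and 3.5, 3.95 and 3.92 in STBD1 W203C, without overlap. It had log2 fold changes of 1.49 (SE 0.11) and 1.12 (SE 0.13) against plvx neo and -0.36 (SE 0.10) between the constructs. TNIP1, a partner of A20, and CYLD, a deubiquitinase, were higher in STBD1 WT by 0.72 (SE 0.05) and 0.55 (SE 0.07), and lower in STBD1 W203C than in STBD1 WT, at -0.45 (SE 0.05) and -0.21 (SE 0.07). TNFAIP3, TNIP1 and CYLD made up the 3 lower genes of that comparison (13.4% of all tested genes lower), and against plvx neo they were the 3 higher genes of STBD1 W203C (3.03% of all tested genes higher), TNIP1 at 0.27 (SE 0.05) and CYLD at 0.34 (SE 0.08). In that comparison limma called 0 of the 11 (5 at an unadjusted p below 0.05), losing TNFAIP3, TNIP1 and CYLD (adjusted p = 0.128, 0.0656 and 0.505), and DESeq2 lost CYLD (adjusted p = 0.053). Medians of the list were 0.09, -0.10 and 0.08. Between the constructs TNFAIP3 lost its call in DESeq2 and limma (adjusted p = 0.0565 and 0.0537) and without STBD1 W203C replicate 2 (edgeR adjusted p = 0.0782). CYLD lost its call there in DESeq2 and limma (adjusted p = 0.185 and 0.141) and kept it only without STBD1 W203C replicate 3 among the fits that left out 1 library (otherwise edgeR adjusted p = 0.0622 to 0.124).

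Of 29 NF-kB target genes, 28 were matched and 19 tested. In STBD1 WT vs plvx neo 14 were higher and 1 lower, with a median of 0.69 (13.9% of all tested genes higher, 13.9% lower). CXCL8, a neutrophil-attracting chemokine, was at 1.60, 1.23 and 1.3 TPM in plvx neo, 15.2, 14.1 and 11.8 in STBD1 WT, and 8.80, 9.07 and 7.16 in STBD1 W203C. Its log2 fold changes were 3.55 (SE 0.14) and 2.81 (SE 0.17) against plvx neo and -0.73 (SE 0.10) between the constructs. PLAU and TNFAIP2 were higher in STBD1 WT by 0.80 (SE 0.06) and 0.76 (SE 0.04). In STBD1 W203C, 8 targets were lower and 0 higher than in STBD1 WT, PLAU and the adhesion molecule ICAM1 among them at -0.48 (SE 0.06) and -0.40 (SE 0.08), with a median of -0.21 (13.4% of all tested genes lower). The ICAM1 call was lost in limma (adjusted p = 0.0726). Against plvx neo 9 were higher and 1 lower, with a median of 0.35 (3.03% of all tested genes higher, 2.67% lower). CD83 was higher by 0.73 (SE 0.10), and the lower gene was BCL2L1, an inhibitor of cell death, at -0.61 (SE 0.04). BCL2L1 was also the lower gene of STBD1 WT vs plvx neo, at -0.40 (SE 0.04). It was among those lower between the constructs, at -0.21 (SE 0.04). Targets that HCT116 cells hardly expressed, such as CCL2, VCAM1 and CXCL5, were listed at 0 in all libraries.

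**Figure D5:**
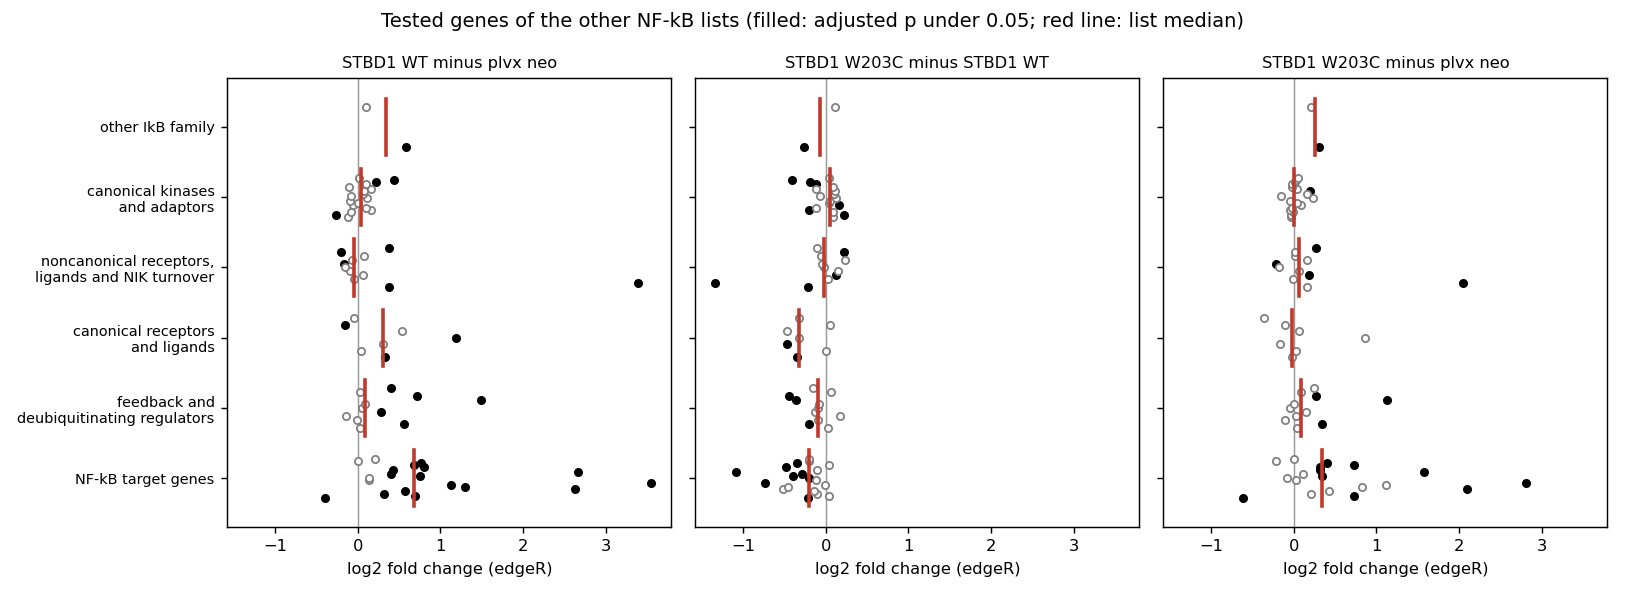
Log2 fold change (edgeR, horizontal axis) of each tested gene of the 6 other lists in the 3 comparisons, filled where the adjusted p was below 0.05, with a red line at the list median. In STBD1 WT minus plvx neo the target genes reach 3.55 (CXCL8) and BIRC3 stands alone at 3.38 in the noncanonical list, while the canonical kinases stay near 0.

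The last list held 2 further members of the IkB family, BCL3 and NFKBID. BCL3, a nuclear IkB that binds the processed forms of NFKB1 and NFKB2, was at 9.87 ± 1.31 TPM in plvx neo, 16.1 ± 1.27 with STBD1 WT and 12.7 ± 1.53 with STBD1 W203C (SD, n = 3). Its log2 fold change was 0.58 (SE 0.08) for STBD1 WT and 0.31 (SE 0.09) for STBD1 W203C against plvx neo, and -0.26 (SE 0.08) between the constructs. The STBD1 W203C call against plvx neo (edgeR adjusted p = 0.0412) was lost in each of the 6 fits that left out 1 library (adjusted p = 0.0543 to 0.19), and the call between the constructs without STBD1 WT replicate 3 or STBD1 W203C replicate 1 (edgeR adjusted p = 0.0546 and 0.0773). Both calls were also lost in DESeq2 (adjusted p = 0.156 and 0.0978) and in limma (0.249 and 0.0725). NFKBID was at 4.89 ± 1.33, 5.47 ± 0.867 and 6.18 ± 2.34 TPM in the same order of groups, and did not pass.

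Likeness of pattern was described by Pearson's r of log2 CPM (counts scaled to library size) over the 9 libraries among the 11318 genes that averaged 5 CPM or more. The 9 points are libraries of 3 groups, so a high r reflects the order of the groups as well as single libraries, and it carries no test. The genes most like NFKBIA were RELB (r = 0.993), CXCL8 (0.991), CIC (0.986), PARP12 (0.986) and PTP4A1 (0.986). Those most like NFKB2 were SQSTM1 (0.995), OPTN (0.993), PARP9 (0.993), SBNO2 (0.993) and TAPBP (0.992). For NFKB1 they were SLC16A9 (0.965), HS3ST1 (0.962), IQANK1 (0.959), BCAN-AS2 (0.953) and CD83 (0.951). OPTN had the same order of groups as NFKB2 at lower levels, with 9.34 ± 0.958 TPM in plvx neo, 32.3 ± 1.81 with STBD1 WT and 19.9 ± 0.616 with STBD1 W203C. SLC16A9 was highest in STBD1 W203C, as NFKB1 was, at 4.16 ± 0.460, 5.59 ± 0.170 and 6.46 ± 0.307 TPM in the same order of groups.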

How the data were processed

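RNA was sequenced from 9 libraries of HCT116 cells. According to the methods, the authors discarded low-quality, adapter-containing and poly-N reads, mapped the remaining pairs with STAR 2.7.1a to hg38 with Ensembl release 93 gene models, and ran RSEM 1.3.1. The deposited tables hold the authors' RSEM expected counts, not whole numbers because shared read pairs are divided, and their TPM, scaled by effective length to a fixed total per library. Strand of counting is not given in the sources used here, so overlapping genes are uncertain. Symbols matched 57754 of 58395 IDs (98.9%).

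Groups came from the sample titles. Expected counts were rounded. Genes passing filterByExpr were normalised by TMM and tested with the edgeR 4.0.16 quasi-likelihood F-test (R 4.3.3), two-sided, on the 6 libraries compared, with Benjamini-Hochberg adjustment over all genes tested and a threshold of 0.05. The SE is the log2 fold change divided by the square root of F. The comparison STBD1 W203C vs plvx neo was added to those named by the study. Scripts were tested on simulated data.

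The 10 genes and the 6 pathway lists were chosen with earlier results of these data known. Named beside them were STBD1, FAM47E-STBD1 and, per list and comparison, up to 3 called genes with the largest absolute log2 fold change and a mean of at least 5 CPM. BCL3 and NFKBID were named as the whole of their list. Genes near 0, OPTN, SLC16A9, LTBR, and TRAF2, BIRC2, TNFRSF12A and BCL2L1 in comparisons outside the rule were singled out after their values were seen. Alternatives were DESeq2 1.42.0, RLE factors, no filter, all 9 libraries, the replicate number as a block, limma 3.58.1 on log2(TPM + 1) or log2(TPM + 0.1) for genes with a mean of at least 1 TPM or without a filter, a fold of at least 1.5, each library left out, and overlapping genes summed, the last chosen after seeing the data. Positions and overlaps came from GENCODE on hg38 and promoter windows from RefSeq.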

Additional observations from a re-analysis of the deposited data

How the results depend on the processing

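Of 450 values of the 10 genes under alternatives, 396 kept their direction and side of the threshold, 41 lost the call, 3 gained it and 10 changed sign, none of these past the threshold. The sign changed for REL in STBD1 W203C vs STBD1 WT (0.051 with overlapping genes summed, 0.049, 0.061 and 0.049 in limma, and -0.13 to 0.11 without 1 library) and for NFKBIZ in STBD1 W203C vs plvx neo (-0.16 to 0.036 without 1 library). The cause was not tested. Of 600 values of the pathway genes named, 502 kept their call and 98 lost it.

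Numbers called are given first for STBD1 WT vs plvx neo, then for the constructs (STBD1 W203C vs STBD1 WT), then for STBD1 W203C vs plvx neo. Over all genes they were 4254, 4202 and 859. DESeq2 gave 3170, 2982 and 621, limma on log2(TPM + 1) 1701, 1779 and 118, with a pseudocount of 0.1 1703, 1791 and 122, and without a filter 970, 991 and 15. A fold of at least 1.5 left 541, 471 and 104 of all genes and 4, 1 and 3 of the 10. Of the 10, limma called 6, 4 and 5 at either pseudocount and 5, 2 and 3 without a filter. Of the pathway lists edgeR called 32, 24 and 19, limma 21, 12 and 5, 21, 13 and 4 with the smaller pseudocount and 16, 7 and 2 without a filter, and DESeq2 28, 15 and 13.

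Leaving out 1 library gave 3317 to 3794, 3307 to 3618 and 459 to 818 genes, 8 to 10, 5 to 6 and 7 to 8 of the 10, and 27 to 30, 18 to 20 and 13 to 18 in the lists. The drop to 459, 501 and 543 genes in STBD1 W203C vs plvx neo came without plvx neo replicate 3 and STBD1 W203C replicates 1 and 2, and fits without a library have fewer samples. The 9-letter form GGGNNTTCC, which is another motif, was found in 2 genes, and the kappa-B consensus in 6.

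Same-numbered libraries correlated at -0.012 to 0.068 in their deviations from group means, and other-numbered ones at -0.10 to 0.074. No pairing by replicate number was seen, though so few libraries cannot exclude one. The replicate block gave 4400, 3662 and 1003 genes, 9, 5 and 8 of the 10, and 31, 19 and 20 in the lists. Among the 10, mean expected counts were lowest for NFKBIZ in each group (118 to 321 per library), followed in plvx neo by RELB (186 to 230), and fewer counts give less precision.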
